A study of Mus musculus with 4 samples.

Results

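The genes described here are those of DNA replication and of its control by E2F, 37 genes of the 34816 genes and transcripts on the array. They were chosen by name from a list of 39 symbols, of which 2 were older names that no probe carried. The array held 46 probes for them, 1 probe for 30 genes and several for 7. Of the 37 genes, 35 were well above background on all 4 arrays. Brca1 and Ccne2 were not well above background on any array, so that no difference is given for either.

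In a proliferating cell the MCM proteins form a ring-shaped helicase that is loaded onto replication origins in G1 phase by the origin recognition complex with CDC6 and CDT1. The ring is switched on in S phase together with CDC45 and the GINS complex, after which primase and the DNA polymerases copy both strands behind it. Many of the genes for these proteins are transcribed under E2F factors, which the retinoblastoma protein holds back until cyclin E with its kinase CDK2 and other cyclin-dependent kinases release them. Fibroblasts that start to reprogram are known to shorten their cell cycle, and AKT is a kinase downstream of growth factor receptors that is known for promoting growth and entry into the cell cycle.

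The study asked how AKT activation affects the making of induced pluripotent stem cells. Mouse embryonic fibroblasts with an Oct4-EGFP transgene (OE-MEFs), from male E13.5 embryos that the methods describe as mixed, were infected with retroviruses. Each of the 4 groups had 1 single-channel array at 8 days postinfection (dpi). OSK cells received Oct4, Sox2 and Klf4 without 4OHT or with 4OHT, and OSKA cells received the same factors and AKT-MER, again without or with 4OHT. All 4 groups thus carried the reporter and the 3 reprogramming factors. AKT-MER joins a myristoylated AKT to a modified estrogen receptor and is switched on by the receptor's ligand, 4-hydroxytamoxifen (4OHT). From 3 dpi the medium held either 4OHT or vehicle, and the cells were profiled as whole cultures, in which the share that carried all factors was not measured on these arrays. For OSKA cells with 4OHT the sample's title and its description disagree, since the description speaks of inactive AKT-MER, and the title was followed.

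Levels below are log2 intensities minus the 75th percentile of the same array, and a gene with several probes is given by its brightest. With 1 array per group there were no replicates and nothing was tested. The only errors at hand cover the measurement on the array: the error model of the scanner software, 0.20 (log2) for a difference of most of these genes and at most 0.40, and the scatter among repeat spots of one probe, 0.095 for a difference. The percentile of the arrays lay between 377 and 462 intensity units, and between 52.4% and 55.4% of spots were well above background. The Esr1 probe, which can read the receptor part of AKT-MER, was not well above background in OSK cells and exceeded them by at least 219-fold (without 4OHT) and 233-fold (with 4OHT) in OSKA cells. All 6 fibroblast markers were well above background on every array, and their summed log2 level lay between 10.21 and 10.41, but single markers moved apart in the OSKA pair, with 4OHT differences from -0.67 (Pdgfrb) to 0.49 (Col3a1). Of the 6 pluripotency markers, Zfp42, Esrrb and Sox2 were not well above background on any array, and the summed log2 level of the others lay between 1.55 and 2.11, with Tdgf1 at -0.73 and Dppa5a at 0.53 in the OSKA pair. All 4 macrophage markers were measured, and their summed log2 level was 6.74 in OSK cells without 4OHT and 7.14 to 7.32 on the other 3 arrays. Of the 4 endothelial markers Cdh5 was not well above background, and the sum of the others lay between 3.00 and 3.57. Single endothelial markers moved apart in the OSK pair, with 4OHT differences of 0.73 (Kdr), -0.01 (Pecam1) and -0.56 (Tek). The part of other cell types in the results was not tested, and in RNA from whole cultures fewer cycling cells and less RNA per cell cannot be told apart.

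The replication and E2F genes were slightly higher in OSKA cells with 4OHT than in OSKA cells without, and most of them by little. Their median log2 difference was 0.14, against -0.03 over the 20300 genes measured in that contrast, and 26 of the 35 genes were higher, against 45.2% of all genes. More genes than usual pointed up, but not by large steps. Genes were counted from a step of 0.32 (log2), which is 25% higher or 20% lower. Past this step 3 of the 35 were higher, against 12.0% of all genes, and 1 was lower, against 14.9%. Past 1.5-fold 2 were higher, against 5.06%, and 1 was lower, against 4.63%. None reached 2-fold, where 2.01% of all genes were higher and 0.901% lower by that much. In the other contrasts described below none reached 2-fold either, where between 0.277% and 2.67% of all genes did in a given direction. The differences had an SD of 0.21 over the 35 genes and 0.39 over all genes. Past the scatter of repeat spots, 21 genes were higher and 2 lower, against 31.4% and 39.8% of all genes. Past their own software error 10 were higher and 1 lower, against 18.4% and 24.2%. In OSK cells, to which no AKT-MER was added, the median 4OHT difference was -0.01, against 0.00 over 19861 genes, and 17 of 35 genes were higher, against 49.4%. Past the 0.32 step 0 were higher, against 12.4% of all genes, and 2 (Cdc45 and Rfc3) were lower, against 8.55%. Past 1.5-fold 0 were higher and 0 lower, against 4.33% and 1.63%. With a normexp background correction 0 were lower past the 0.32 step, against 3.83% or 3.89% of all genes, by the scaling used. The macrophage markers Csf1r and Adgre1 differed by 0.60 and 0.64 in the same pair of OSK arrays and by -0.17 and 0.08 in the OSKA pair. Scaling the arrays to spike-in RNA moved the median of all genes to -0.27 in the OSK pair and to -0.07 in the OSKA pair, and the median of the replication and E2F genes to -0.27 and 0.11.

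**Figure D1:**
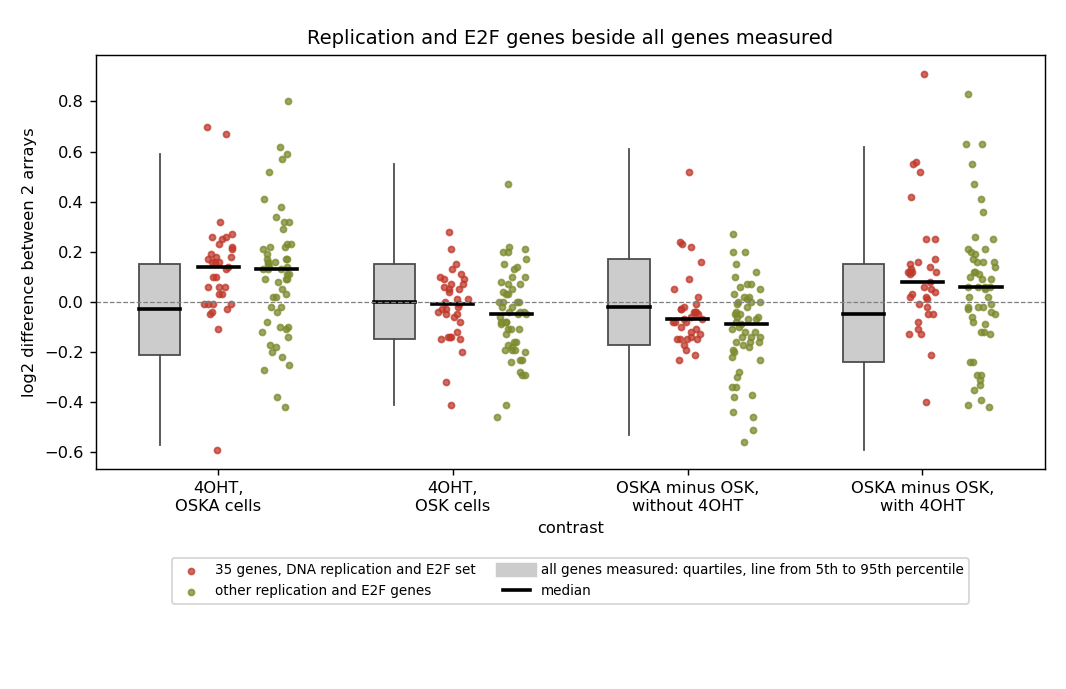
Log2 differences (y axis) in the 4 contrasts (x axis), with 1 array on each side of a difference. Red points are the 35 replication and E2F genes measured, green points are the other replication and E2F genes listed separately, boxes are the quartiles of all genes with lines from the 5th to the 95th percentile, and black bars are medians. The red median lies at 0.14 for 4OHT in OSKA cells and at -0.01 for 4OHT in OSK cells.

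The comparisons between OSKA and OSK cells placed these genes on either side of 0. Without 4OHT, 27 of 35 genes were lower in OSKA cells and 8 were higher, where 47.0% of 20183 genes were higher, and the median was -0.07 against -0.02 over all genes. These were small differences, since 1 gene, Ccne1, was higher past the 0.32 step, against 14.7% of all genes, and 0 were lower past it, against 11.6%. Past 1.5-fold 0 were higher and 0 lower, against 5.66% and 3.99%. With 4OHT, 25 of 35 were higher in OSKA cells, against 42.9% of 19846 genes, with a median of 0.08 against -0.05. Ccne1, E2f8, E2f2, Orc1 and Cdc45 were higher past the 0.32 step, 5 genes against 12.4% of all, and Pola2 was the 1 gene lower past it, against 17.2% of all. Past 1.5-fold 1 (Ccne1) was higher and 0 lower, against 5.46% and 5.10%. With a normexp background correction 3 genes were higher and 0 lower past the step, where the shares of all genes fell too, to 8.41% or 9.54% higher and 10.6% or 8.74% lower, by the scaling used. Orc1 then differed by 0.12 or 0.15, Cdc45 by 0.15 or 0.18 and Pola2 by -0.11 or -0.09. Spike-in scaling lowered the median of all genes to -0.32 without 4OHT and to -0.12 with 4OHT, so that 1 and 18 of the 35 genes were then higher, against 16.1% and 33.4% of all genes.

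The 4 contrasts share arrays, so their counts are not separate pieces of evidence, and the order of the arrays gives the same values once. Of the 35 genes, 19 (54.3%) had their highest level in OSKA cells with 4OHT, against 27.3% of the 19540 genes measured on all arrays. Only Pola2 (1 of 35, 2.86%) had its highest level in OSKA cells without 4OHT, against 19.0% of all genes, and 17 (48.6%) had their lowest level there, against 18.8%. Both at once, highest in OSKA cells with 4OHT and lowest in OSKA cells without, held for 12 genes (34.3%), against 7.19% of all genes, and the reverse for Pola2 (1 gene), against 7.74%. The 4OHT difference was larger in OSKA than in OSK cells for 29 of 35 genes, against 45.7% of all genes, and the median gap was 0.16, against -0.04. The gap passed the 0.32 step for 5 genes, against 15.7% of all, namely E2f2 (0.63), Cdc45 (0.56), Pola1 (0.46), E2f8 (0.39) and Ccne1 (0.39). Pola2 was the 1 gene with a gap of that size the other way (-0.45), against 22.4%. Past 1.5-fold 1 gene (E2f2) lay above and 0 below, against 7.03% and 10.3%. With a normexp background correction the gap passed the 0.32 step for 4 genes, against 11.4% or 12.2% of all, by the scaling used. The other way it did for 0, against 16.0% or 13.8%. The gaps of Cdc45 and Pola2 then fell under the step.

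**Figure D2:**
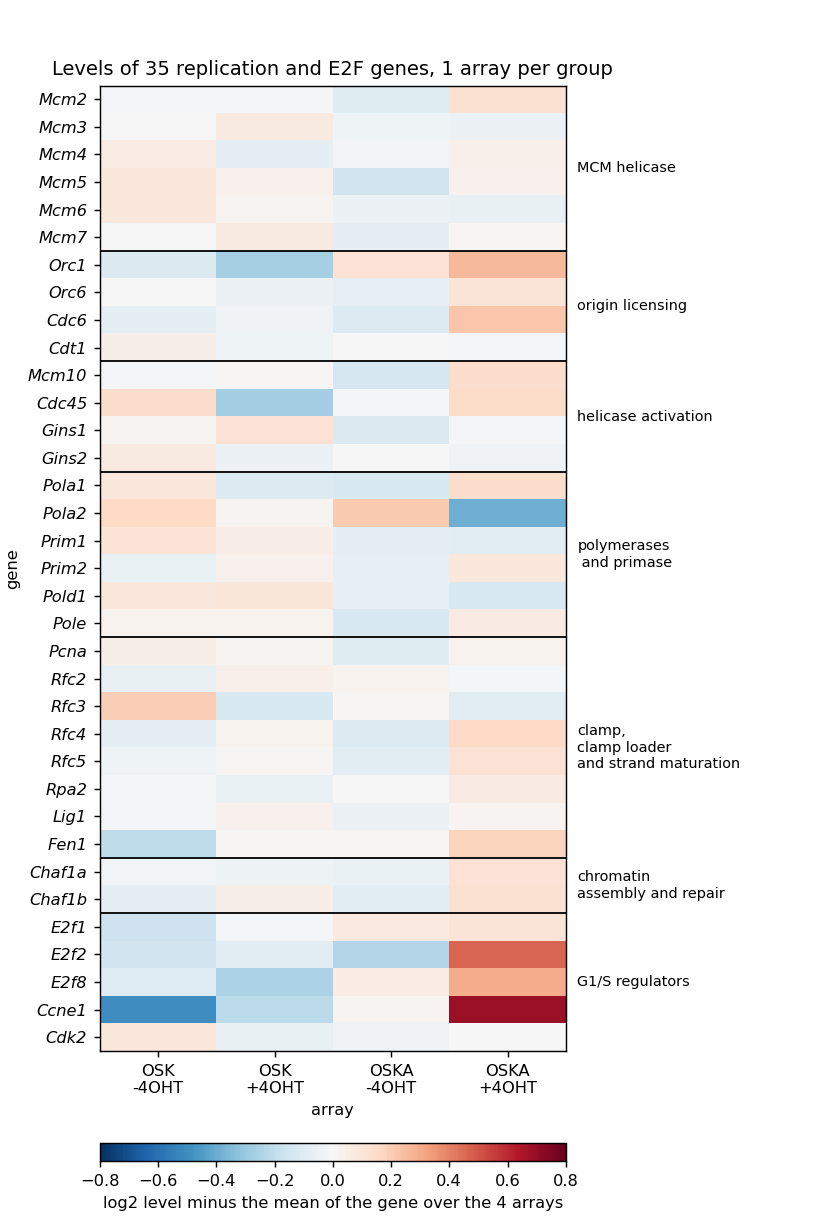
Log2 level of each of the 35 genes (rows, grouped by role) on each of the 4 arrays (columns) minus the mean of that gene over the 4 arrays. Red is above and blue below that mean. The column of OSKA cells with 4OHT holds the highest level of 19 genes, and Ccne1, E2f2 and Pola2 depart furthest from their means.

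The stretch before the start of transcription was read from RefSeq promoters of the GRCm38.p6 assembly, which held 30 of the 37 genes. E2F factors bind DNA around a GC-rich core, and 3 versions of it were searched on both strands in the 250 bases before each start. The first reads TTCGCGC, the second reads TTGGCGC and the third reads TTCCCGC. At least 1 core was present in 14 of the 30 genes (46.7%), and in 7.68% of all 27025 genes in the table. The genes were chosen by name for replication and E2F, so their higher share is not a separate finding. The promoters compared were not matched for GC content. By version, the first was found in 14.3% of the 35 promoters of these genes and in 1.28% of all promoters, the second in 11.4% and 1.97%, and the third in 25.7% and 3.82%. The first version on one strand can overlap the second on the other, and such overlaps were counted under both. The 7 stretches printed here are those of the genes with the most cores (Mcm5, Mcm6 and Pola1), of the G1/S regulators with the highest differences (E2f8, E2f2 and Ccne1) and of the gene with the lowest (Pola2). Each is 120 bases long on the strand of the gene, from 5′ to 3′, and capitals mark a core on either strand.
Mcm5, chr8:75109335-75109454, plus strand: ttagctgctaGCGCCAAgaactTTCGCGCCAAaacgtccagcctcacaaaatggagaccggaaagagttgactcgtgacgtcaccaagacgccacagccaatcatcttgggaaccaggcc
Mcm6, chr1:128359706-128359825, minus strand: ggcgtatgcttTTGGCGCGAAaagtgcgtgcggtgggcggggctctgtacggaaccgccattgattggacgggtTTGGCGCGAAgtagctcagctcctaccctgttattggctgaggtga
Pola1, chrX:93632215-93632334, minus strand: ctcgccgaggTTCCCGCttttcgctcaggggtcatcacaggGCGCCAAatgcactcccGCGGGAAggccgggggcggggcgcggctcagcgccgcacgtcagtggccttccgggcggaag
E2f8, chr7:48881597-48881716, minus strand: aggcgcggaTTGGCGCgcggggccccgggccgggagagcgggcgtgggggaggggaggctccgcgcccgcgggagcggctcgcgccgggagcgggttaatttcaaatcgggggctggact
E2f2, chr4:136172154-136172273, plus strand: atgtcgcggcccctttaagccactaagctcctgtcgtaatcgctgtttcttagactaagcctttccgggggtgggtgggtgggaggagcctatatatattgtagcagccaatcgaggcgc
Ccne1, chr7:38107491-38107610, minus strand: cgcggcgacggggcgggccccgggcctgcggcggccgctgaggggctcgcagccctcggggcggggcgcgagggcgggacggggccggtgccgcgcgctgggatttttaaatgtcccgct
Pola2, chr19:5964207-5964326, minus strand: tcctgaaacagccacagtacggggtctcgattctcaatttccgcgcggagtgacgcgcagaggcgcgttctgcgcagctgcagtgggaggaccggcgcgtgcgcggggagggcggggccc
Mcm6, the helicase subunit with 4 cores, holds them as overlapping pairs, of which one spans 109 to 100 and the other 46 to 37 bases before the start. In Mcm5 an overlapping pair and a single core lie between 164 and 143 bases before the start, and in Pola1 3 separate cores lie between 169 and 115. E2f8 holds 1 core. In E2f2, Ccne1 and Pola2 these letters were not found in the 250 bases searched, of which 120 are shown, and a second E2f2 promoter in the table held none either. A core is a match of letters, not a bound site. The 14 measured genes with a core had a median 4OHT difference of 0.15 in OSKA cells, from -0.11 to 0.32, with 11 of 14 higher. The 15 measured genes in the table without one had a median of 0.16, from -0.59 to 0.70, with 11 of 15 higher, close to the genes with a core. Over all genes measured in that contrast 45.2% were higher.

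The G1/S regulators had the highest median of the 7 role groups in the OSKA pair, 0.25 over the 5 measured. All 5 were higher with 4OHT, against 45.2% of all genes, though E2f1 and Cdk2 by only 0.03 each. Levels from here on are given in the order OSK without 4OHT, OSK with 4OHT, OSKA without 4OHT and OSKA with 4OHT. Ccne1 encodes cyclin E1, which with CDK2 drives the entry into S phase. Its level was 1.57, 1.85, 2.09 and 2.76, each read with a software error of 0.14. The 4 arrays thus stood in the order of the groups as listed, with OSKA cells with 4OHT 0.67 above the next. The log2 difference was 0.67 (1.59-fold) for 4OHT in OSKA cells, 0.28 (1.21-fold) for 4OHT in OSK cells, 0.52 (1.43-fold) for AKT-MER without 4OHT and 0.91 (1.88-fold) for AKT-MER with 4OHT. A dimmer probe of Ccne1, read separately, had levels of -3.05, -2.61, -2.82 and -2.24. On that probe too OSKA cells with 4OHT were highest and OSK cells without 4OHT lowest, while the middle arrays changed places. Its 4OHT difference was 0.57 in OSKA and 0.44 in OSK cells, a gap of 0.13 against 0.39 on the brighter probe. On the dimmer probe AKT-MER differed by 0.24 (1.18-fold) without 4OHT and by 0.37 (1.29-fold) with 4OHT, so that on it no difference between OSKA and OSK cells passed 1.5-fold. The brighter Ccne1 probe lies at chr7:38882937-38882960 and the dimmer at chr7:38885574-38885633 (NCBI37, mm9).

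E2f2 encodes an activator among the E2F factors, and its level stood apart on a single array. Its levels were 0.77, 0.84, 0.69 and 1.39 for the probe at chr4:135750562-135750621. The first 3 values lay within the error of one another, and OSKA cells with 4OHT were 0.55 above the nearest. The 4OHT difference was 0.70 (1.63-fold) in OSKA cells and 0.07 in OSK cells, and AKT-MER with 4OHT differed by 0.55 (1.46-fold). E2f8 encodes an atypical E2F that represses E2F targets later in S phase. Its levels were -0.18, -0.33, -0.02 and 0.22 for the probe at chr7:56121860-56121919. Both OSKA arrays were above both OSK arrays. The 4OHT difference was 0.25 in OSKA cells and -0.15 in OSK cells, and AKT-MER with 4OHT differed by 0.56 (1.47-fold). E2f1, another activator, had levels of 1.56, 1.71, 1.80 and 1.83, a range of 0.27 in which OSK cells without 4OHT were lowest, and its 4OHT difference in OSKA cells was 0.03. Cdk2, the kinase partner of cyclin E, had levels of -0.88, -1.02, -0.99 and -0.96, a range of 0.14 over the 4 arrays that is within the software error. In OSKA cells with 4OHT, E2f2 thus stood 0.55 and Ccne1, on its brighter probe, 0.67 above the next array. E2f8 stood 0.25 above it, against a software error of 0.20. E2f1 and Cdk2 differed by 0.03 each in the OSKA pair.

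**Figure D3:**
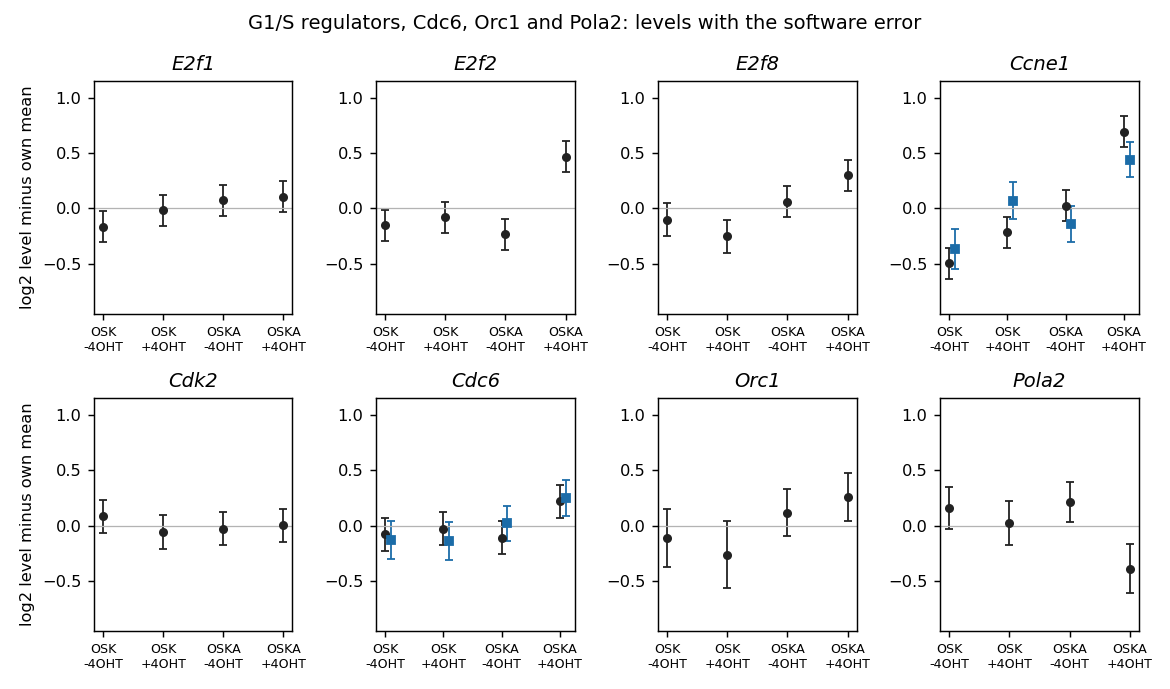
Log2 level (y axis) minus the mean over the 4 arrays (x axis) of the 5 G1/S regulators measured and of Cdc6, Orc1 and Pola2, each point 1 array. Bars are the software error of a level and blue squares are the dimmer probe of a gene. OSKA cells with 4OHT are the highest array for Ccne1, E2f2, E2f8, E2f1, Cdc6 and Orc1 and the lowest for Pola2.

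The 6 MCM subunits were bright and nearly level over the arrays. Their median 4OHT difference in OSKA cells was 0.08, with 4 of 6 higher, against 45.2% of all genes. Mcm2 had levels of 1.251, 1.239, 1.155 and 1.381, and a difference of 0.23 in the OSKA pair. Mcm5 had levels of 2.36, 2.31, 2.12 and 2.31, and a difference of 0.18 in that pair. In Mcm5 that difference came with a low level in OSKA cells without 4OHT, since OSKA cells with 4OHT were at the level of OSK cells with 4OHT. Mcm7 had levels of 3.57, 3.64, 3.49 and 3.58, and Mcm4 had levels of 3.72, 3.58, 3.64 and 3.70. Mcm6 had levels of 5.20, 5.14, 5.07 and 5.06. These last 3 subunits differed by 0.10, 0.06 and -0.01 in the OSKA pair, less than the software error of 0.20. Mcm3 had levels of 3.46, 3.53, 3.42 and 3.41 and a difference of -0.01, while a dimmer probe that overlaps it on the genome had levels of 2.72, 2.81, 2.61 and 2.86 and a difference of 0.25. The direction for Mcm3 thus depended on the probe. Without 4OHT all 6 subunits were lower with AKT-MER than in OSK cells, by -0.23 (Mcm5) to -0.04 (Mcm3), where 53.0% of all genes were lower.

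Of the 4 origin licensing genes, which load the helicase, Cdc6 had the highest 4OHT difference in OSKA cells. Its levels were -1.93, -1.88, -1.96 and -1.63. The first 3 arrays agreed within 0.08, and the 4OHT difference in OSKA cells of 0.32 lay at the counted step. The dimmer Cdc6 probe had levels of -2.63, -2.64, -2.48 and -2.25 and a 4OHT difference of 0.23 in OSKA cells. On it AKT-MER with 4OHT differed by 0.39, past the step, against 0.25 on the brighter probe. Orc1, the largest subunit of the origin recognition complex, was dim, with levels of -3.97, -4.12, -3.74 and -3.60 and software errors of 0.21 to 0.30. Both OSKA arrays were above both OSK arrays, and AKT-MER with 4OHT differed by 0.52 (1.43-fold) with an error of 0.37. Orc6 differed by 0.18 in the OSKA pair. Cdt1, the partner of CDC6 in loading, had levels of 2.64, 2.56, 2.59 and 2.58 and did not vary past the scatter of repeat spots.

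Among the genes that switch the helicase on, Mcm10, which binds the helicase and helps to activate it, had levels of 1.253, 1.266, 1.134 and 1.398. Its 4OHT difference was 0.26 in OSKA and 0.01 in OSK cells. Cdc45, a helicase cofactor, had levels of -2.77, -3.18, -2.92 and -2.76. Here OSK cells with 4OHT were the array that lay apart, and the level in OSKA cells with 4OHT was that of OSK cells without 4OHT. The 4OHT difference of Cdc45 in OSK cells, -0.41, was -0.08 or -0.18 with normexp. Of the GINS subunits, Gins1 differed by 0.10 in the OSKA pair, and Gins2, with levels of 0.50, 0.38, 0.43 and 0.40, by -0.03. Without 4OHT all 4 genes of this group were lower with AKT-MER than in OSK cells, by -0.15 to -0.07, each within its software error, where 53.0% of all genes were lower.

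Of the polymerases and primase 3 of 6 were higher in the OSKA pair, near the share of all genes, 45.2%. The highest and the lowest of these 6 values were those of subunits of DNA polymerase alpha, which starts each new strand together with primase. Pola1, the catalytic subunit, had levels of 1.17, 0.97, 0.96 and 1.22, the same within error in OSK cells without 4OHT and OSKA cells with 4OHT. Its 4OHT difference was 0.26 in OSKA and -0.20 in OSK cells. Pola2, the accessory subunit, had levels of -2.93, -3.07, -2.88 and -3.48 for the probe at chr19:5946484-5946543. Its level in OSKA cells with 4OHT was the lowest, and the 4OHT difference of -0.59 (0.663-fold) in OSKA cells had a software error of 0.28. That difference depended on how the background was removed, since it was -0.17 or -0.20, by the scaling used, when a normexp model replaced the background correction of the software. Prim1 and Prim2, the primase subunits, differed by -0.01 and 0.16 in the OSKA pair. Pole and Pold1, the catalytic subunits of the leading and lagging strand polymerases, differed by 0.19 and -0.05, and a second Pole probe differed by 0.30.

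The clamp, its loader and the enzymes that finish the new strands had 6 of 8 genes higher in the OSKA pair, against 45.2% of all genes. Their median was 0.09, against -0.03 over all genes. Pcna, the sliding clamp, had levels of 4.80, 4.77, 4.65 and 4.78. Rfc4, a clamp loader subunit, had levels of 2.39, 2.50, 2.36 and 2.63 and the highest 4OHT difference of the group in OSKA cells, 0.27, against 0.06 on its other probe. Rfc3, another loader subunit, had levels of -0.44, -0.76, -0.62 and -0.73. Rfc3 was lower with 4OHT in OSK cells, by -0.32, and differed by -0.11 in OSKA cells, the lowest value of the group. Of the other loader subunits, Rfc5 differed by 0.21 and Rfc2 by -0.04 in the OSKA pair, each with a software error of 0.20. Fen1, the nuclease that trims Okazaki fragments, had levels of 3.09, 3.30, 3.30 and 3.47, lowest in OSK cells without 4OHT. Its 4OHT difference was 0.16 in OSKA and 0.21 in OSK cells. Lig1, the ligase that seals the fragments, and Rpa2, a subunit of the protein that coats single-stranded DNA, differed by 0.06 each in OSKA cells. In chromatin assembly, Chaf1b had levels of 2.81, 2.94, 2.80 and 3.01, and Chaf1a had levels of 1.03, 1.01, 1.0 and 1.17. Both are subunits of the factor that places histones on new DNA, and they differed by 0.22 and 0.17 in OSKA cells, close to the software error.

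**Figure D4:**
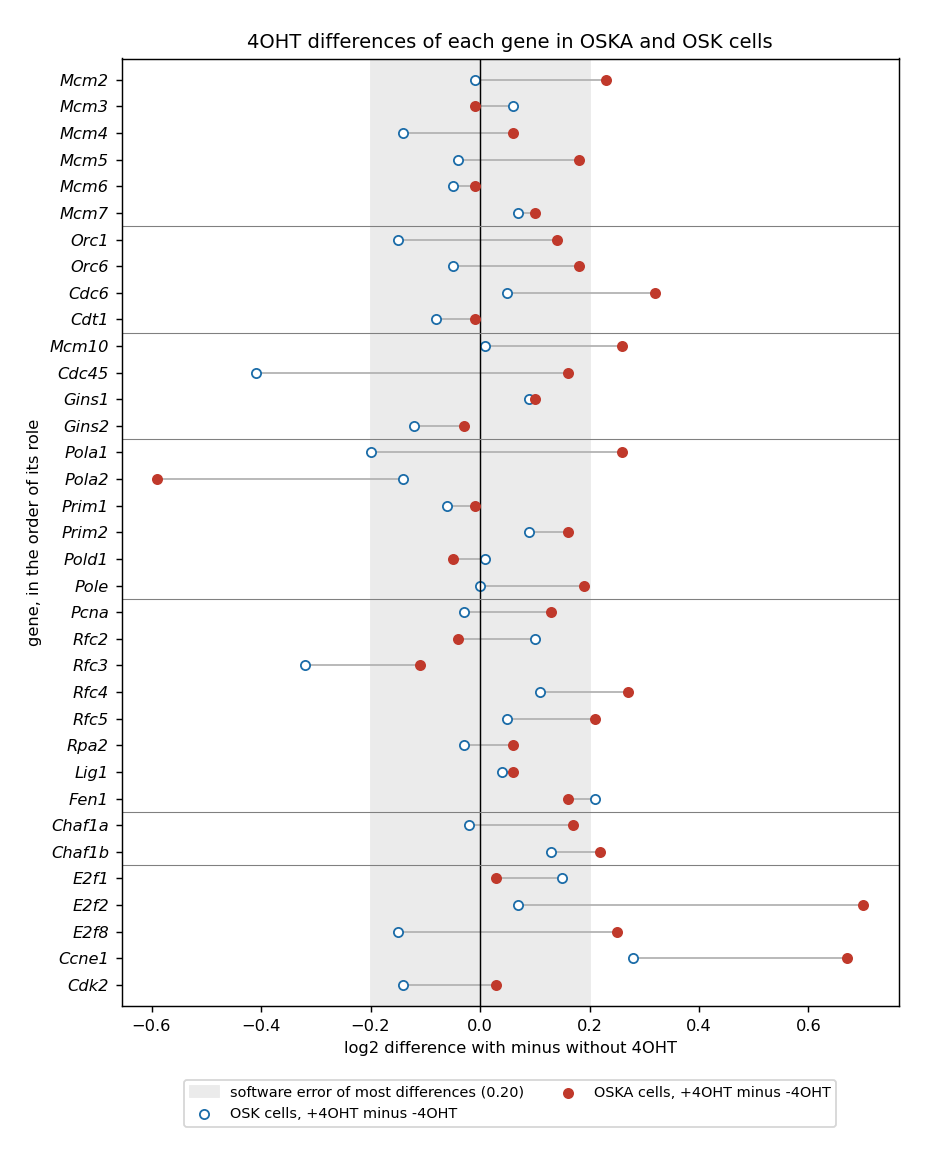
Log2 difference with minus without 4OHT (x axis) of each of the 35 genes (y axis, in the order of their roles) in OSKA cells (red) and in OSK cells (open blue), 1 array on each side. The grey band spans the software error of most differences, 0.20 on either side of 0. E2f2 (0.70), Ccne1 (0.67) and Pola2 (-0.59) lie furthest out in OSKA cells, and most other points lie in or near the band.

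A second list of 55 genes with roles in replication, nucleotide supply or E2F control gave medians near those of the 35 genes. It was chosen with earlier results of these data known and read from the same 4 arrays, so it is not a separate check. In the OSKA pair the median 4OHT difference of the 55 genes was 0.13, with 38 of 55 higher, against 45.2% of all genes. Past the 0.32 step 8 were higher (14.5%) and 2 lower (3.64%), against 12.0% and 14.9%. In the OSK pair the median was -0.05, with 22 of 54 higher, against 49.4%. For AKT-MER without 4OHT it was -0.09, with 15 of 54 higher, against 47.0%, and 8 (14.8%) lower past that step, against 11.6%. With 4OHT it was 0.06, with 31 of 54 higher, against 42.9%, and past the step 7 of 54 higher and 5 lower, against 12.4% and 17.2%. The highest in the OSKA pair was Recql4, a helicase needed to start replication, with levels of -0.76, -0.80, -0.76 and 0.03. Its difference of 0.80 in OSKA cells was 0.13 on its other probe. Clspn, a mediator of the replication checkpoint, had levels of -2.78, -3.06, -3.01 and -2.42, a difference of 0.59. E2f4, an E2F that mostly acts as a repressor, had levels of -3.30, -3.30, -3.86 and -3.24, so that its difference of 0.62 came with a low level in OSKA cells without 4OHT. Rrm2, a subunit of the enzyme that makes deoxynucleotides, had levels of 4.20, 4.15, 4.10 and 4.62, a difference of 0.52. Rb1, the retinoblastoma protein that holds E2F back, was 0.57 higher in OSKA cells with 4OHT, with levels of 1.72, 1.67, 1.73 and 2.29, and its relative Rbl2 was at -0.42, with levels of -1.24, -1.04, -1.05 and -1.47. Recql4, Clspn, E2f4, Rrm2, Rb1 and Rbl2 were picked from the list after their values were seen.

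The mean profile of the 35 genes over the 4 arrays was -0.01, -0.03, -0.04 and 0.08 around its own mean. Outside both lists, the 5 genes with a RefSeq symbol whose levels came nearest to it were Pex19, Sh3glb2, Tmx3, Nupl2 and Ube2v2. Their Euclidean distances were 0.007 to 0.019. With 4 arrays such a likeness is easily met among 19540 genes, and it is given as a description.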

How the data were processed

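Total RNA (100 ng per sample) was labelled with Cy3 and hybridised to 4 Agilent arrays on 1 slide, 1 array per group, so that position on the slide and group cannot be told apart. The scanner files deposited by the authors hold a linear intensity per spot, corrected for background and trend by Agilent Feature Extraction 10.7.3.1 but not normalized between arrays, with an error and marks for spots well above background. The deposited series matrix held the same intensity, rounded (ratio 0.995 to 1.005).

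Of 62976 spots, 59305 were not controls. Marked spots (104 to 155 on an array) were dropped, and 0 were saturated. The log2 intensity was reduced by the 75th percentile of the array, and spots of one probe were averaged. Of 55681 probes, 27509 (49.4%) were named through RefSeq accessions (GRCm38.p6). Probe coordinates use NCBI37 (mm9) as the files do, promoter coordinates use GRCm38.p6, and where in a transcript a probe lies was not analysed here. For each gene the probe of highest mean level was used, and differences were taken only where it was well above background on both arrays. Of 399 probes spotted 10 times, those well above background gave the scatter of repeat spots. The number of arrays limits the precision, and there was no replicate and hence no test. Genes were counted at 1.25-fold (0.32 on the log2 scale), 1.5-fold and 2-fold. The genes and lists were chosen with earlier results of these data known. The genes given with all levels were the G1/S regulators, the MCM subunits, the highest and the lowest of each other role group in the OSKA pair, any member at least 1.5-fold different in a contrast, and, outside that rule and after values were seen, Orc1, Cdc45, Pcna and Fen1. The other genes were given by their differences. The values were recomputed under 10 other settings of background correction, scaling, probe choice, filter, table and names, for which limma 3.58.1 (R 4.3.3) supplied normexp (offset 50) and quantile normalization. The scripts, in Python 3.11.15 with numpy 2.4.6 and pandas 2.3.3, were tested on simulated data.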

Additional observations from a re-analysis of the deposited data

Results flagged for a closer look

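Orc1, Cdc45, Pola1 and E2f8 differed in opposite directions with 4OHT in OSKA and OSK cells, past the scatter of repeat spots (0.095) on both sides. The log2 difference was 0.14 and -0.15 for Orc1, 0.16 and -0.41 for Cdc45, 0.26 and -0.20 for Pola1, and 0.25 and -0.15 for E2f8, in OSKA and OSK cells respectively. This is 4 of 35 genes (11.4%), where 24.8% of the 19540 genes measured on all arrays had opposite signs past the same scatter. All 4 were higher in OSKA and lower in OSK cells, as were 2085 of those 19540 genes, a share close to that of the 35. With normexp the value of Orc1 in OSK cells was 0.14 or -0.01, by the scaling used, so that its opposite direction was lost with the first, and that of Cdc45 was -0.08 or -0.18. With 1 array per group the gap between the pairs was not tested, and of these 8 differences those of Cdc45 in OSK cells and of Pola1 and E2f8 in OSKA cells exceeded their software error. At any size, 15 of the 35 genes (42.9%) had opposite signs in the pairs, against 50.4% of all genes.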

How the results depend on the processing

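Over all alternatives the median of the replication and E2F genes for 4OHT in OSKA cells lay between 0.10 and 0.16, its distance from all genes between 0.10 and 0.18, and the number higher between 24 and 28. With AKT-MER and 4OHT the median lay between 0.01 and 0.11. The near-zero values changed sign. For 4OHT in OSK cells the median was 0.01 with normexp and quantile normalization and 0.04 over the brightest of 3 classes of genes, and its distance from all genes was 0.02 with normexp and quantile normalization, 0.01 with quantile normalization and 0.03 over the brightest class. For AKT-MER without 4OHT that distance was 0.02 with no filter on dim probes. Spike-in scaling gave a median of -0.27 for 4OHT in OSK cells, with 1 gene higher at any size, against 15.5% of all genes. Past the 0.32 step 0 were higher and 11 lower, against 4.34% and 39.2%. For AKT-MER without 4OHT it gave a median of -0.37, with 1 gene higher at any size, against 16.1%. Past the step 0 were higher and 25 lower, against 4.88% and 49.0%. Under spike-in scaling the median gap between the 4OHT differences was 0.39. In the gap 21 genes were higher past the step and 0 lower, against 34.6% and 11.3% of all genes.

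Counts at the 0.32 step rested on few genes. With either normexp setting 0 genes were lower for 4OHT in OSKA cells, for 4OHT in OSK cells, for AKT-MER with 4OHT and in the gap, where at the 75th percentile 7.73%, 3.83%, 10.6% and 16.0% of all genes were, and 3 were higher for AKT-MER with 4OHT. For 4OHT in OSK cells 1 gene was lower with quantile normalization, with median scaling and with the series matrix, against 8.91%, 8.46% and 8.57% of all genes, and 1 was higher with the mean of all probes, against 12.2%. With no filter 1 was lower for AKT-MER without 4OHT, against 14.9%. At 1.5-fold, 0 genes were lower for 4OHT in OSK cells, 0 were higher for AKT-MER without 4OHT, 1 was higher and 0 lower for AKT-MER with 4OHT, and 1 was higher and 0 lower in the gap, and at 2-fold all these counts and those for 4OHT in OSKA cells were 0. The cause of these shifts was not tested. Leaving out Ccne1, E2f2 and Pola2, and the brightest class, were chosen after seeing the data, and leaving out those 3 genes moved no median past the scatter of repeat spots. Of 13 single-gene differences past the step, 0 changed sign in 134 values under the alternatives, and 8 fell under it in at least 1 of them. Of 127 smaller differences, 57 of 1294 values changed sign, 30 of them under spike-in scaling. Dim genes such as Orc1 and Pola2 carried the widest errors. No paired analysis was possible because each group had 1 array.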
